A study of Drosophila melanogaster with 12 samples.

Results

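mir-210 is a conserved miRNA hairpin, and its 2 arms, miR-210-5p and miR-210-3p, were followed across all 12 libraries of a temperature series in fly heads. The members were every row of the deposited table whose hairpin is mir-210. There were 2 such rows of 408, from 1 hairpin of 238. The rule used no measured value, and both rows passed the filter on low counts.

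The study immunoprecipitated AGO1, the main miRNA-loaded Argonaute of the fly, from whole heads and sequenced the small RNAs bound to it. All libraries came from Canton-S, a wild-type laboratory strain, and the labels name no transgene or drug. The temperatures were 18°C, then 25°C, then 29°C, and each had 1 library from heads of each time point (ZT3, ZT9, ZT15 and ZT21). ZT (Zeitgeber time) counts hours from lights on, so ZT3 and ZT9 fell in the light and ZT15 and ZT21 in the dark. The 4 time points of a temperature served as its replicates (n = 4), so the spread given for a temperature includes any change with time of day. The labels give no batch, age or sex, and do not say how many flies went into a library.

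In flies, miR-210 is known from the visual system, where loss of the miRNA leads to degeneration of photoreceptors, and from clock neurons, where raised miR-210 alters the projections of PDF-expressing cells and locomotor rhythms. A miRNA hairpin is cut into a short duplex, and 1 strand of it is usually kept by Argonaute while the other is discarded. The kept strand pairs with target mRNAs through its seed. The ratio of the arms given here is that among reads bound to AGO1, and how strands were chosen or lost was not tested. Whole-head libraries do not resolve photoreceptors or clock neurons, and fewer cells of a type and less RNA per cell cannot be told apart in them.

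In the BDGP6.54 genome the mir-210 hairpin lies on the X chromosome, at positions 18128219 to 18128318 of the plus strand. The 5p arm spans positions 18128234 to 18128256 and the 3p arm 18128270 to 18128292. Each annotated arm is 23 bases long, with 13 bases between them. No annotated gene overlaps the hairpin, so it is intergenic. The nearest genes are the minus-strand lncRNA:CR32553, 1191 bases away, and the minus-strand CG43133, 1266 bases away. The only other miRNA gene within 10000 bases is mir-969, which ends 3768 bases upstream on the same strand.

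Libraries held between 4423511 and 16840372 miRNA reads, a 3.81-fold range, with the fewest in the 29°C ZT21 library. miR-210-5p was counted with 3143 to 27431 reads per library and miR-210-3p with 6942 to 29870 reads. Counting error alone was at most 1.78% of the 5p value and 1.20% of the 3p value. The deposited values are reads divided by a size factor for each library, and values given below for an arm are in that unit unless stated otherwise. Reads were counted without molecular identifiers, so intervals from counts cover counting error only.

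miR-210-5p was several-fold higher at 18°C than at either warmer temperature, whereas miR-210-3p showed no such difference. miR-210-5p was 24490, 25930, 15117 and 11590 at 18°C at ZT3, ZT9, ZT15 and ZT21. In the same order it was 7698, 7997, 4430 and 10175 at 25°C, and 4833, 5166, 3671 and 8018 at 29°C. Every 18°C library was above every library of the other temperatures, while the 25°C and 29°C libraries overlapped. Groups that do not overlap were found for 38.9% of the 244 miRNAs tested between 18°C and 29°C, and for 24.6% between 18°C and 25°C. The means of miR-210-5p were 19282 ± 7019 at 18°C, 7575 ± 2370 at 25°C and 5422 ± 1845 at 29°C (SD, n = 4).

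miR-210-3p, the arm usually described as the functional strand in flies, gave 23670, 24208, 19080 and 14906 at 18°C at ZT3, ZT9, ZT15 and ZT21. At 25°C it gave 18357, 22252, 13350 and 19795, and at 29°C 23104, 20300, 15736 and 17709. All 3 temperatures overlapped, and the highest and the lowest temperature shared most of their range. The means were 20466 ± 4363 at 18°C, 18438 ± 3754 at 25°C and 19212 ± 3198 at 29°C (SD, n = 4).

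**Figure D1:**
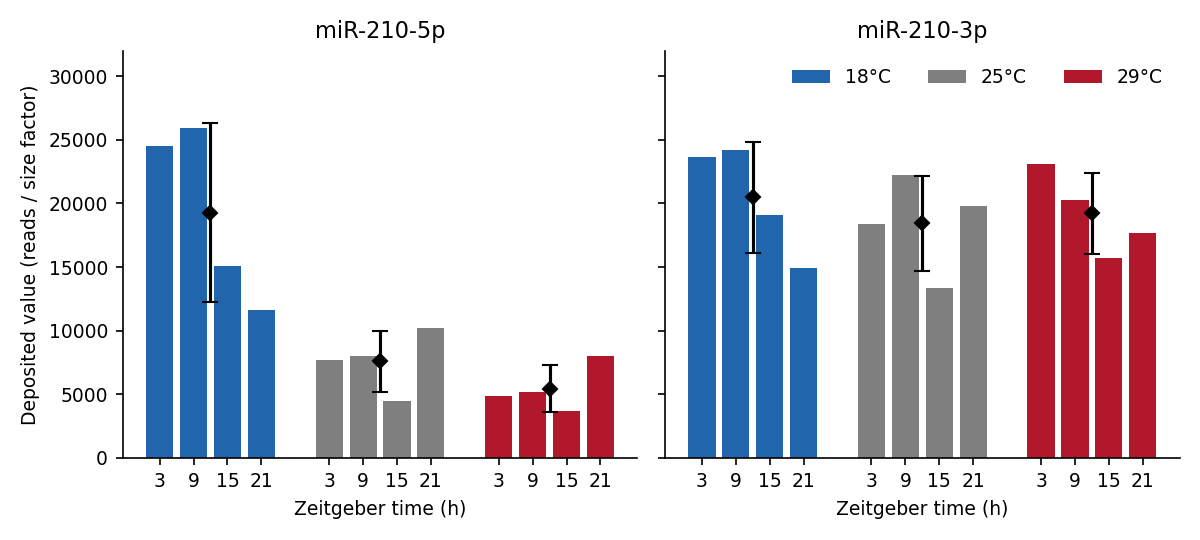
Deposited value (reads divided by the size factor) of miR-210-5p (left) and miR-210-3p (right) in each library, by temperature and Zeitgeber time in hours. Bars are single libraries, and diamonds with error bars are the mean ± SD of 4. The 5p bars at 18°C, from 11590 to 25930, all stand above those of the warmer temperatures, and the 3p bars overlap at all temperatures.

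To compare temperatures, log2(value + 1) was fitted with limma in 1 model of the 3 temperatures, with Benjamini-Hochberg adjustment over the 244 miRNAs. A miRNA was called at an adjusted p under 0.05 with a log2 fold change over 1 in either direction. miR-210-5p was 1.81 log2 units (SE 0.32) higher at 18°C than at 29°C, or 3.51-fold, with an adjusted p of 0.000836 by limma. Under this rule 39 of 244 miRNAs, 16%, were called between 18°C and 29°C, with 9.84% called as higher at 18°C and 6.15% as lower. The 5p arm stood ninth of 244 by the size of its difference and 38th by p. The median difference over all 244 miRNAs was 0.03.

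Between 18°C and 25°C, miR-210-5p was 1.33 log2 units (SE 0.32) higher at 18°C, or 2.52-fold, with an adjusted p of 0.0133 by limma. In that comparison 10 of 244 miRNAs, 4.1%, were called, 3.69% as higher at 18°C, and the 5p arm ranked 8th by size. Between 29°C and 25°C its difference was −0.48, with a 95% interval from −1.19 to 0.23 and an adjusted p of 0.437 by limma, and 3.28% of miRNAs were called, 2.05% as higher at 29°C. A fit of only the 25°C and 29°C libraries, with time point as a block, was chosen after seeing the data. It pairs the libraries by ZT. In it the same difference had an SE of 0.11 and an adjusted p of 0.0159 by limma, but stayed under the fold threshold. The comparisons share libraries, since each temperature enters 2 of them.

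miR-210-3p passed the threshold in no comparison by limma. Its log2 difference was 0.08 for 18°C against 29°C (95% interval −0.32 to 0.48, adjusted p = 0.802). It was 0.15 for 18°C against 25°C (−0.25 to 0.55, adjusted p = 0.614). For 29°C against 25°C it was 0.07 (−0.33 to 0.47, adjusted p = 0.867). The intervals hold no difference as large as that of the 5p arm between 18°C and either warmer temperature.

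The 25°C level was also set against a straight line between 18°C and 29°C in log2 units per degree. The 5p arm lay 0.18 below the line (coded −0.18, SE 0.28, adjusted p = 0.873 by limma). Per degree, the 5p arm changed by −0.19 log2 units between 18°C and 25°C and by −0.12 between 25°C and 29°C.

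The arm balance of mir-210 shifted with temperature. miR-210-5p made up 50.9%, 51.7%, 44.2% and 43.7% of mir-210 reads at 18°C at ZT3, ZT9, ZT15 and ZT21. The shares were 29.5%, 26.4%, 24.9% and 34.0% at 25°C, and 17.3%, 20.3%, 18.92% and 31.2% at 29°C. Every 18°C library was above every other library. At 29°C the ZT21 library stood well above the other 3, with a 95% Wilson interval from 30.3% to 32.1%. The mean share at 18°C was 47.6% ± 4.24, that at 25°C 28.7% ± 3.99 and that at 29°C 21.9% ± 6.29 (SD, n = 4). The arms are different sequences that a library can capture with unequal efficiency, so a share near 50% does not show equal amounts, and only its change between libraries was compared.

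On the log2 scale the ratio of 5p to 3p reads averaged −0.14 ± 0.25 at 18°C, −1.32 ± 0.28 at 25°C and −1.87 ± 0.50 at 29°C (SD, n = 4). The ratio was 1.73 log2 units (SE 0.22) higher at 18°C than at 29°C, or 3.32-fold, with an adjusted p of 1.38e-05 by limma over the 89 hairpins with both arms measured. Arm ratios of 51 of 89 hairpins, 57.3%, were called at an adjusted p under 0.05 in this comparison. The 5p arm was relatively higher at 18°C in 31.5% and relatively lower in 25.8%. A changed arm ratio was thus common, and that of mir-210 was the third of 89 by size.

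For 18°C against 25°C the ratio of mir-210 differed by 1.18 (SE 0.22, adjusted p = 0.00308 by limma). Arm ratios of 26 of 89 hairpins were called there, 14.6% of the 89 with the 5p arm relatively higher at 18°C. Groups without overlap were found for 41.6% of arm ratios between 18°C and 29°C, and for 23.6% between 18°C and 25°C. For 29°C against 25°C the difference was −0.55 (95% interval −1.02 to −0.07), and the adjusted p of 0.0986 by limma missed the threshold, with 19.1% of hairpins called. Paired by time point in a fit of only these 8 libraries, the same difference had an adjusted p of 0.0271 by limma and was called. Without the 29°C ZT21 library this difference was −0.79, with an adjusted p of 0.00473. Without all 3 ZT21 libraries it was −0.67, and the adjusted p ranged from 0.00411 to 0.249 over the alternatives.

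**Figure D2:**
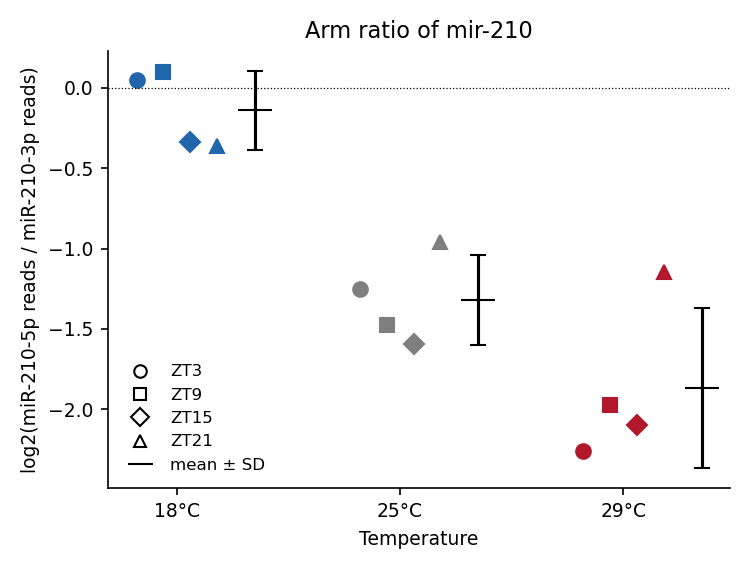
log2 ratio of miR-210-5p to miR-210-3p reads in each library, by temperature, with a symbol for each time point and bars for the mean ± SD of 4 libraries. The 18°C libraries lie between −0.36 and 0.10, above all others, and the 29°C ZT21 library lies at −1.14, near the 25°C values.

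**Figure D3:**
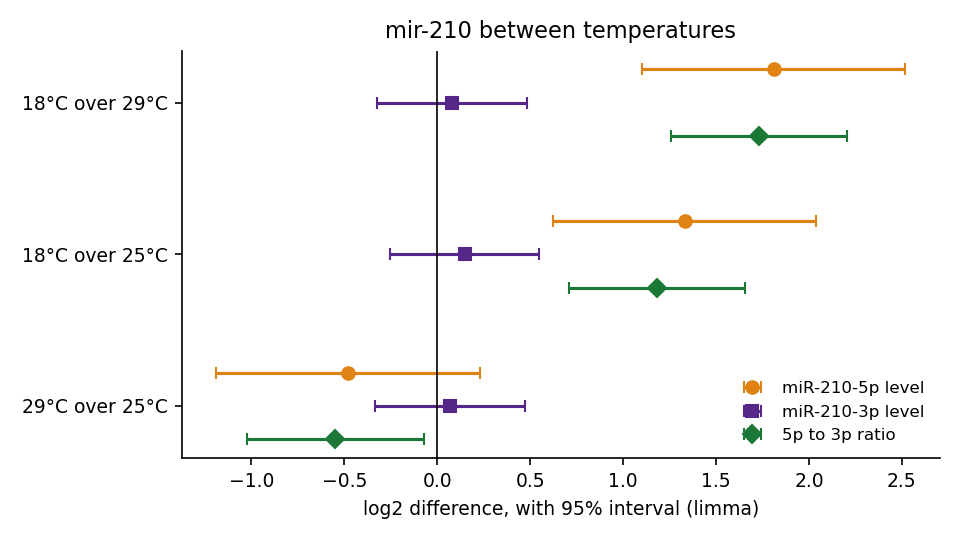
log2 difference of miR-210-5p, miR-210-3p and the 5p to 3p ratio between each pair of temperatures, with 95% limma intervals. The 5p arm and the ratio lie at 1.81 and 1.73 for 18°C over 29°C, and the 3p interval spans 0 in all 3 comparisons.

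The 2 arms together changed less than the 5p arm alone. The summed value was 48160, 50138, 34197 and 26497 at 18°C at ZT3, ZT9, ZT15 and ZT21. At 25°C the sums were 26055, 30249, 17780 and 29969, and at 29°C 27937, 25467, 19407 and 25726. The 18°C range overlapped both others through its ZT21 library. The sum was 1.58-fold higher at 18°C than at 29°C, which an exact two-sided permutation test did not separate (p = 0.0571, adjusted over 3 pairs 0.171). For 18°C against 25°C it was 1.51-fold higher (exact permutation p = 0.114, adjusted 0.171), and for 29°C against 25°C it was 0.959-fold (exact permutation p = 0.686). With 4 libraries against 4 the smallest p is 0.0286. After adjustment over 3 pairs, a single pair at that p cannot be called. With values scaled to all miRNA reads, 18°C against 29°C had this p, and it was adjusted to 0.0857. The missed calls of the sum therefore cannot be set against the limma calls of the 5p arm, which come from a different test. Without the 18°C ZT21 library the log2 differences of the sum were 0.83 and 0.77 for 18°C against 29°C and 25°C, each with an exact permutation p adjusted to 0.0429. Over the alternatives the adjusted p ranged from 0.0429 to 0.171 and from 0.0429 to 0.386. Of the difference in mean sums between 18°C and 29°C, 91.7% lay in the 5p arm, and of that between 18°C and 25°C 85.2%. These shares count a read of either arm alike, although a library can capture the arms unequally.

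Within a library, miR-210-5p ranked 32nd to 46th by reads at 18°C, 49th to 68th at 25°C and 57th to 68th at 29°C. miR-210-3p ranked 34th to 39th, 35th to 44th and 36th to 44th. As a share of all miRNA reads, the 5p arm took 0.122% to 0.245% at 18°C, 0.0401% to 0.107% at 25°C and 0.0328% to 0.0711% at 29°C. The 3p arm took 0.157% to 0.229%, 0.121% to 0.208% and 0.141% to 0.207%.

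The tested miRNAs next to the 5p arm in mean value did not share its change. They were miR-193-5p, at −0.06 for 18°C against 29°C (adjusted p = 0.743 by limma), and miR-970-3p, at −0.45 (adjusted p = 0.00323). Next to the 3p arm stood miR-317-5p, at 0.50 (adjusted p = 0.0748), and bantam-5p, at 0.79 (adjusted p = 0.00049).

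At a given time point, the 5p arm at 18°C was 5.07-fold the 29°C value at ZT3, 5.02-fold at ZT9 and 4.12-fold at ZT15, but 1.45-fold at ZT21. Against 25°C it was 3.18-fold, 3.24-fold and 3.41-fold at ZT3, ZT9 and ZT15, and 1.14-fold at ZT21. The difference was thus small at ZT21 in both comparisons. The difference in log2 ratio between 18°C and 29°C was 2.31, 2.07, 1.76 and 0.78 at ZT3, ZT9, ZT15 and ZT21. Each of these values compares 1 library with 1 library and carries no test. At ZT21 the 18°C library was the lowest of its temperature for the 5p arm, and the 25°C and 29°C libraries were the highest of theirs. With all ZT21 libraries left out, the 5p difference was 2.24 for 18°C against 29°C and 1.71 for 18°C against 25°C.

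Time of day was then tested with temperature as a covariate. By the limma F test over the 4 time points, the adjusted p was 0.851 for each arm and 0.629 for the ratio. No miRNA passed an adjusted p under 0.05 (0 of 244, 0%), and 12 (4.92%) had an unadjusted p under 0.05. This rested on 1 library, that of 18°C ZT21. For the 5p arm it was the lowest of its temperature, whereas ZT21 was the highest at 25°C and at 29°C. Leaving it out thus drops the ZT21 library that differs, and ZT21 is then estimated from the 25°C and 29°C libraries only. Without the 18°C ZT21 library, the adjusted p was 0.000243 for the 5p arm, 0.0468 for the 3p arm and 0.0310 for the ratio. In that fit 26 of 244 miRNAs (10.7%) and 7 of 89 arm ratios (7.87%) were called. Over the alternatives the adjusted p ranged from 0.000243 to 0.962 for the 5p arm, 0.0468 to 0.962 for the 3p arm and 0.0310 to 0.957 for the ratio. In the fit without that library, the 5p arm stood at −0.63 log2 units (SE 0.11) at ZT15 and at 0.56 (SE 0.13) at ZT21, both relative to ZT3. The 3p arm stood at −0.44 (SE 0.12) at ZT15, and the ratio at 0.67 (SE 0.20) at ZT21. At 18°C both arms were lowest at ZT21, whereas at both warmer temperatures ZT15 gave the lowest value.

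Dark and light were also compared over all temperatures. For miR-210-3p, the mean of the dark libraries was 0.710 times that of the light libraries at 18°C, 0.816 times at 25°C and 0.771 times at 29°C. Both dark libraries lay below both light libraries at 18°C and at 29°C, but not at 25°C. Few libraries enter each such comparison, and the share of all miRNAs with this order was not counted. The limma difference was −0.40 log2 units (SE 0.11, 95% interval −0.64 to −0.15). Its unadjusted p of 0.00392 was second of 244, but its adjusted p of 0.478 missed the threshold. No miRNA passed in this comparison (0 of 244, 0%), and 7 (2.87%) had an unadjusted p under 0.05.

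For miR-210-5p the dark mean was 0.530 times the light mean at 18°C, 0.930 times at 25°C and 1.17 times at 29°C. The difference over all temperatures was −0.35 (SE 0.25, adjusted p = 0.994 by limma). For the ratio it was 0.05 (SE 0.19, adjusted p = 0.979). Whether the difference between dark and light depended on temperature was tested with an interaction term. Its adjusted p by limma was 0.719 for the 5p arm, 0.886 for the 3p arm and 0.654 for the ratio. By this test 0 of 244 miRNAs and 1.12% of arm ratios passed, and 9 miRNAs had an unadjusted p under 0.05. With 2 libraries per cell of this design, a dependence of moderate size may not have been detectable.

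The only miRNA with a smaller unadjusted p between dark and light was miR-969-3p, from the hairpin 3768 bases upstream on the same strand. It was looked at after its values were known. miR-969-3p was 831, 1310, 748 and 484 at 18°C at ZT3, ZT9, ZT15 and ZT21. At 25°C it was 518, 765, 331 and 269, and at 29°C 324, 408, 260 and 278. The log2 difference between dark and light was −0.77 (SE 0.17). The dark libraries lay below the light libraries at every temperature, but miR-969-3p was picked by its p in this same comparison. That order is therefore no separate support, and its share over all miRNAs was not counted. The unadjusted limma p of miR-969-3p was 0.000718 and its adjusted p of 0.175 missed the threshold. At 18°C against 29°C miR-969-3p was 1.34 log2 units higher (SE 0.34, adjusted p = 0.00698 by limma).

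miR-969-5p went the other way, on few reads, from 16 to 118 in a library. Its mean at 18°C was 40.3 ± 5.34, that at 25°C 58.4 ± 5.88 and that at 29°C 70.3 ± 22.6 (SD, n = 4). Its log2 difference for 18°C against 29°C was −0.73 (SE 0.24, adjusted p = 0.0255 by limma), under the fold threshold. The 18°C and 29°C libraries overlapped for this arm. The arm ratio of mir-969 thus differed by −2.09 (SE 0.40, adjusted p = 0.000575 by limma), in the direction opposite to mir-210 and first of 89 by size. That of mir-285 differed by 1.83 (SE 0.22), so the first place is not settled by these errors. At mir-210 the arm that was higher at 18°C was the 5p arm, and at mir-969 it was the 3p arm.

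**Figure D4:**
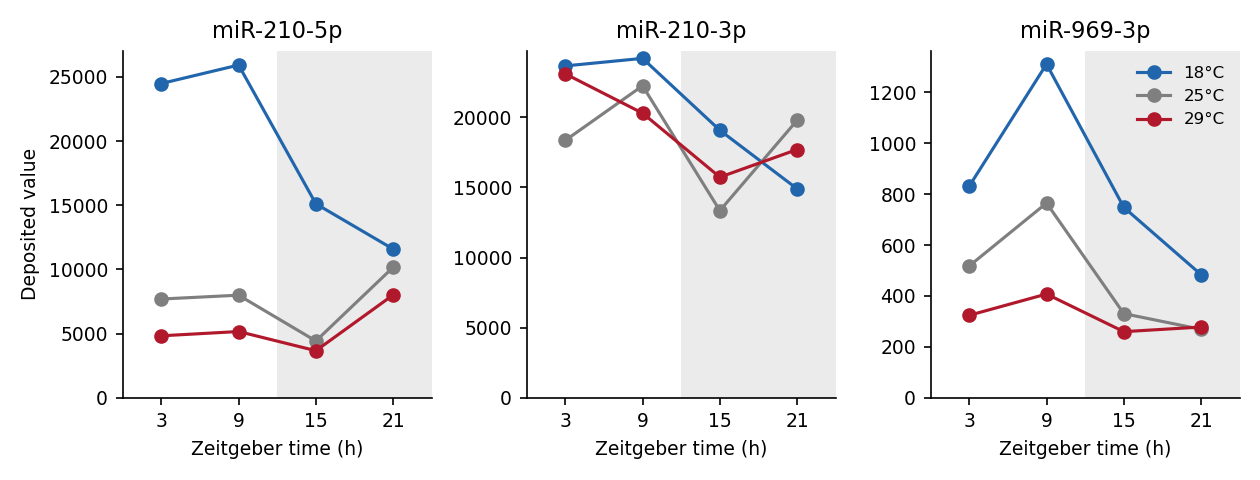
Deposited value of miR-210-5p, miR-210-3p and miR-969-3p against Zeitgeber time in hours, with 1 line per temperature and 1 library per point. The shaded part is the dark phase. miR-210-5p at 18°C is 24490 at ZT3 and 11590 at ZT21, and it is highest at ZT21 at both warmer temperatures.

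Among the hairpins, 86 had both arms in the test across miRNAs. Between 18°C and 29°C, the 5p change of mir-210 was 1.81 (SE 0.32), beside a 3p change of 0.08. That of mir-87 was close to equal, at 1.80 (SE 0.23), so the order of these 5p arms is not settled by their errors. The median size of change over the 86 hairpins was 0.45 for 5p arms and 0.34 for 3p arms. The neighbours of mir-210 in the order of arm ratio changes were mir-285, at 1.83 (SE 0.22), and mir-1000, at −1.72 (SE 0.20). miR-285-5p was 1.72 log2 units higher at 18°C than at 29°C (adjusted p = 4.00e-07 by limma) and miR-285-3p was at −0.11 (adjusted p = 0.582), so its 5p arm also carried the change.

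**Figure D5:**
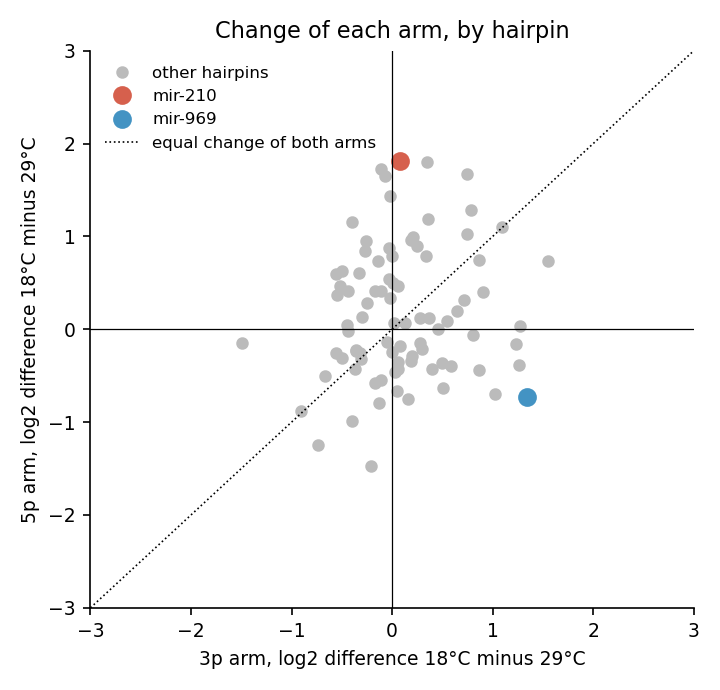
log2 difference of the 5p arm (vertical) against that of the 3p arm (horizontal) for 18°C minus 29°C, 1 point per hairpin. mir-210 lies at 0.08 and 1.81, mir-969 at 1.34 and −0.73, and the dotted line marks an equal change of both arms.

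The miRNAs whose log2 values followed those of miR-210-5p most closely over the 12 libraries were miR-34-3p (Pearson r = 0.960), miR-998-3p (0.956), miR-2a-2-5p (0.942), miR-34-5p (0.938) and miR-193-3p (0.934). All points come from the same 12 libraries and share their size factors, so these r describe the libraries and have no test. miR-34, known in flies for its role in brain ageing, had mean 3p levels of 63193, 32977 and 21608 from the coldest to the warmest flies, and its 3p arm was 1.55 log2 units higher at 18°C than at 29°C (adjusted p = 0.000104 by limma). miR-2a-2-5p was 1.43 higher (adjusted p = 0.000835). miR-193-3p, miR-34-5p and miR-998-3p differed by 0.80, 0.74 and 0.34, under the fold threshold. miR-210-3p came 66th in this order, with r = 0.504.

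For miR-210-3p the most alike were miR-307a-3p (r = 0.804), miR-133-3p (0.662), miR-932-3p (0.637), miR-277-3p (0.603) and miR-79-5p (0.587). Their differences for 18°C against 29°C lay between −0.26 and 0.47, with adjusted p by limma from 0.148 to 0.917. The 5p arm came 14th in that order. For the arm ratio the most alike hairpins were mir-2a-2 (r = 0.977), mir-285 (0.956), mir-87 (0.936), mir-13a (0.918) and mir-277 (0.902), each with a relatively higher 5p arm at 18°C than at 29°C, by 0.91 to 1.83 log2 units.

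A list of 17 miRNAs linked to fly clocks was read beside mir-210, of which 12 could be tested. Between 18°C and 29°C, 1 was called as higher at 18°C and 2 as lower, beside 9.84% called as higher and 6.15% as lower over all 244 miRNAs. The list median was −0.20 and that of all 244 miRNAs 0.03. The study had itself drawn attention to miR-969 and miR-33 for their temperature response in these same libraries. The list counts, which include both, are thus no separate test against the share of all miRNAs. The called member that was higher at 18°C was miR-969-3p. The 2 that were lower were miR-33-5p, known for its part in lipid metabolism (−1.24, adjusted p = 5.44e-07 by limma), and miR-964-5p, from a cluster with rhythmic levels (−1.54, adjusted p = 0.00129). miR-964-5p was called again between 29°C and 25°C (1.35, adjusted p = 0.0113), a comparison in which 3.28% of all miRNAs were called. The most abundant members were miR-276a-3p, known to act on timeless mRNA (−0.24, adjusted p = 0.160), bantam-3p, known to act on Clock mRNA (0.00, adjusted p = 0.992), let-7-5p (−0.29, adjusted p = 0.294) and miR-263a-5p (−0.16, adjusted p = 0.406).

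Of 10 miRNAs linked to the eye and sensory organs, all tested, 1 had an adjusted p under 0.05 between 18°C and 29°C by limma, against 39.8% of all 244 miRNAs. It was miR-8-3p, at −0.55 (adjusted p = 0.00709), under the fold threshold, and the list median was −0.05. miR-7-5p, which acts in photoreceptor differentiation, was at −0.43 (adjusted p = 0.0552).

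Cell type markers were read in the same libraries. The neuronal miR-124-3p ranged over 141 to 232 at 18°C, 114 to 268 at 25°C and 86.0 to 145 at 29°C, and was 0.72 log2 units higher at 18°C than at 29°C (adjusted p = 0.0390 by limma). The 5p arm of mir-124, with more reads than the 3p arm in every library, was 0.32 log2 units higher at 18°C than at 29°C. The part of miR-124 in the difference of miR-210-5p was not tested. The summed sensory markers miR-7-5p, miR-263a-5p and miR-263b-5p ranged over 216690 to 296810 at 18°C, 231750 to 355450 at 25°C and 271260 to 374910 at 29°C. The summed muscle markers miR-1-3p and miR-133-3p ranged over 195930 to 486990, 255050 to 666660 and 278700 to 526080 in the same order. All 6 markers were detected in every library. Of 11 rows from testis-biased hairpins, the highest had 22 reads in a library.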

How the data were processed

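Small RNAs bound to AGO1 were sequenced from heads of Canton-S flies, in 12 libraries. The authors assigned reads to mature miRNAs of miRBase 21 with miRExpress (version not given in the sources used here). The deposited table is a signal: the authors divided the reads of each row by 1 size factor per library. Of 4896 values, 100% were within 0.01 of a whole number of reads at the recovered factors. The 5 repeated rows were removed, which left 403.

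Values were tested as log2(value + 1) with limma 3.58.1 (trend and robust) in R 4.3.3, for the 244 miRNAs that passed filterByExpr of edgeR 4.0.16, with Benjamini-Hochberg adjustment. Temperatures were the groups and time points the replicates, as in the study's methods. The labels do not say whether libraries were separate cultures, so p-values measure the spread between these libraries. Arm ratios used log2((5p reads + 0.5) / (3p reads + 0.5)) for 89 hairpins with a mean of at least 10 reads per arm. Same-ZT libraries of 25°C and 29°C deviated together in all 4 pairs (correlation 0.226 to 0.445). These 2 temperatures were therefore also compared with time point as a block. Over all temperatures, pairs of libraries that differ in both ZT and temperature had correlations from −0.586 to 0.644, with 16 of 36 over 0.1. The correlations thus do not by themselves establish the pairing. The time points come from the labels. Count tests on the recovered reads (edgeR, and DESeq2 1.42.0) were alternatives. Scripts were tested on simulated data.

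Named miRNAs were the arms, the 5 most alike by Pearson r for each arm and for the ratio, neighbours in level and in ratio change, and list members that were called or most abundant. mir-969 was added after its values were seen. Members and lists were chosen with earlier results of these data known. Sequences and seeds were not analysed here. Gene positions come from the BDGP6.54 annotation and not from the authors' files.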

Additional observations from a re-analysis of the deposited data

How the results depend on the processing

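Each of 24 results on mir-210 was recomputed under 14 to 25 alternatives, 443 values in all. Of these, 421 kept their side of the threshold and, where they have one, their direction, 8 gained a call and 0 lost one. The other 14 changed sign, in 7 results that were not called (adjusted p at least 0.861). Every result had each library left out. TMM and RPM scaling were tried for the arms and their sum, and other pseudocounts and limma without trend for the arms and the ratio. Other filters, only 2 temperatures, edgeR and DESeq2 were tried for differences between temperatures, the count tools for the arms alone. Leaving out all ZT21 libraries, and the paired fit of 25°C and 29°C, were chosen after seeing the data. Scaling to RPM moved the median of all miRNAs for 18°C against 29°C to 0.13, against 0.03.

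Leaving out 1 library at a time, the log2 difference of miR-210-5p ranged from 1.64 to 2.03 for 18°C against 29°C and from 1.09 to 1.55 for 18°C against 25°C. That of the arm ratio ranged from 1.60 to 1.97 and from 1.09 to 1.30 in these comparisons, and from −0.79 to −0.42 for 29°C against 25°C, where leaving out all ZT21 libraries gave −0.67. For the sum of the arms it ranged from 0.53 to 0.83 and from 0.42 to 0.77. The adjusted p of the time-of-day test ranged from 0.000243 to 0.962 for miR-210-5p, from 0.0468 to 0.962 for miR-210-3p and from 0.0310 to 0.957 for the ratio. The dark against light difference of miR-210-3p ranged from −0.48 to −0.34. Each sign change came without 1 library. For miR-210-3p, 18°C against 29°C was −0.0100 without 18°C ZT9 and −0.0114 without 29°C ZT15, and 29°C against 25°C was −0.0781 without 25°C ZT15 and −0.0247 without 29°C ZT3. The sum at 29°C against 25°C was 0.0226, 0.0181 and 0.050 without 25°C ZT9, 25°C ZT21 and 29°C ZT15. The ratio in dark against light was −0.0302, −0.0372 and −0.121 without 25°C ZT21, 29°C ZT3 and 29°C ZT21. For 25°C off the line, leaving out 25°C ZT15 gave 0.0582 for miR-210-5p, 0.0491 for miR-210-3p and 0.00911 for the ratio, and leaving out 29°C ZT21 gave 0.0726 for the ratio.

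For 18°C against either other temperature, 8 same-ZT pairs were not over 0.1 in the correlation of their deviations. These correlations do not settle whether the time points pair libraries there. With time point as a replicate block over all libraries, miR-210-5p again differed by 1.81 for 18°C against 29°C. Its SE was 0.28 with the block, against 0.32 without it. No result on mir-210 changed its call with this block. In the paired fit of 25°C and 29°C the ratio (−0.55) was called and no other result changed its call. Over all miRNAs, the count called was 18 with at least 100 mean reads, against 39, for 18°C against 29°C. For 18°C against 25°C it was 4 with that filter and 6 with a pseudocount of 10, against 10. For 29°C against 25°C it was 1 and 2, against 8. The filter at 100 mean reads left fewer than the 244 miRNAs to test, so its counts are not shares of the same set. Leaving out single libraries gave 13 to 32 called arm ratios for 18°C against 25°C, against 26, and 9 to 18 for 29°C against 25°C, against 17. Depth did not limit the arms of mir-210, whose lowest count was 3143 reads.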
